A study of Mus musculus with 12 samples.

Results

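Toll-like receptors are pattern recognition receptors that innate immune cells use to sense conserved parts of microbes, and several of them are also transcribed in lymphocytes. Receptors at the cell surface mostly bind bacterial lipids and proteins, while receptors in endosomes bind nucleic acids. All of the receptors described here except Tlr3 signal through the adaptor Myd88, which is also the adaptor of the interleukin-1 receptor family, and which recruits Irak kinases and Traf6 to activate NF-κB and interferon regulatory factors. In regulatory T cells (Treg), ligands of these receptors have been used as a means of altering growth and suppressive function.

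The transcripts of 8 Toll-like receptor genes (Tlr1, Tlr2, Tlr3, Tlr4, Tlr6, Tlr7, Tlr9 and Tlr12) and of Myd88 were followed across 12 RNA-seq libraries of mouse splenic Treg. These 9 genes were chosen by name out of 36222 gene identifiers, and each name matched 1 identifier. Treg were isolated by sorting YFP+ cells from the CD4+ T cells of single mice, and the labels gave 4 groups of 3 libraries. Control mice (WT) carried the Foxp3-YFP-Cre allele, and conditional knockout mice (cKO) carried the same Cre together with the floxed Ikzf1 gene, so that Ikaros, a zinc finger transcription factor, was deleted in cells that express Foxp3. The Cre was therefore shared by all 4 groups. Mice of the ex vivo groups were matched for age at 6 to 8 weeks, and the age for the stimulated groups was not given in the sources used here. Cells were either used ex vivo without stimulation or stimulated for 4 h with antibodies to CD3 and CD28, both fixed to the plate at 1 µg/ml. The comparisons address how these transcripts differ with the loss of Ikaros and between ex vivo and stimulated cells. No group was cultured without the antibodies. Effects of 4 h in culture and of T cell receptor stimulation therefore cannot be told apart, and stimulation below stands for both.

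The libraries held between 8208659 and 20247649 reads assigned to genes. A single transcript, Gm10800, took 17.65% to 55.88% of the TPM (transcript abundance corrected for transcript length and summing to the same total in every library) of a library, which lowers the TPM of every other gene by a different amount in each. The share of Gm10800 was 20.41% to 24.39% in cKO ex vivo against 42.88% to 55.88% in cKO stimulated, without overlap, and 17.65% to 39.81% in WT ex vivo against 32.59% to 44.38% in WT stimulated. Its part in the differences with stimulation was not tested beyond the scalings given with them. Ikzf1 was at 83.8 to 125 TPM in the WT ex vivo libraries against 38.8 to 44.3 TPM in cKO ex vivo, and at 66.4 to 83.4 TPM against 17.0 to 31.6 TPM after stimulation, so the targeted gene followed the labels in every library. All 7 T cell and Treg markers examined were above background in all 4 groups. WT ex vivo library 3 stood apart in Xist, which was at 179.4 TPM there and at most 1.361 TPM in the 11 other libraries. The tests of X-linked Tlr7 among genes of at least 5 TPM that rest on this library are given with and without it.

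In the mm9 genome with GENCODE M1 annotation, Tlr1 lies at chr5:65316050-65324000 and Tlr6 at chr5:65344345-65351287, both on the minus strand. Tlr2 lies at chr3:83640195-83645689 on the minus strand, Tlr4 at chr4:66488618-66591318 on the plus strand, and Tlr12 at chr4:128292690-128295863 on the minus strand. Among the endosomal receptors, Tlr3 lies at chr8:46481019-46495962 and Tlr7 at chrX:163742861-163768490, both on the minus strand, and Tlr9 at chr9:106124929-106129207 on the plus strand. Myd88 lies at chr9:119245052-119250529 on the minus strand. No exon of another gene overlapped the exons of a member on the same strand, and Myd88 overlapped exons of Acaa1a on the opposite strand, which strand-specific counting separates. Of the 51-base words in protein-coding transcripts of Tlr1, 17.22% occurred also in Tlr6, and 17.55% of those of Tlr6 occurred in Tlr1, so some reads cannot be assigned to either gene. The 7 other members shared no such word with another protein-coding gene.

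Because the mice differ in a DNA-binding factor, sequences before the RefSeq start of 3 members are shown: Tlr2, which had most matches of the members found, and Tlr1 and Myd88, the most abundant members. The RefSeq promoter table (GRCm38.p6) matched 7 of 9 members by symbol, Tlr4 and Tlr7 being the others. The letters GGGAA, the core that Ikaros recognises and that some NF-κB sites also hold, were searched on both strands, which on the strand shown reads as GGGAA or TTCCC. The stretches were placed in mm9 by exact match, are limited to bases before annotated exons, read 5′ to 3′ on the minus strand, and show matches in capitals. They cover chr3:83645690-83645780 for Tlr2, chr5:65324001-65324188 for the first of the starts of Tlr1, and chr9:119249160-119249386 for Myd88, whose RefSeq start lies inside the annotated gene, so that its stretch is intragenic, between annotated exons.
Tlr2: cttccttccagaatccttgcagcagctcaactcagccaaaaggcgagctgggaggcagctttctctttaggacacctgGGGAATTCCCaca
Tlr1: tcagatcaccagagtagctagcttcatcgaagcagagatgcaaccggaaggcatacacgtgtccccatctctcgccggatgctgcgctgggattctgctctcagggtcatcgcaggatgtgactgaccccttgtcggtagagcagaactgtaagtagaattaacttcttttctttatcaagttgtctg
Myd88: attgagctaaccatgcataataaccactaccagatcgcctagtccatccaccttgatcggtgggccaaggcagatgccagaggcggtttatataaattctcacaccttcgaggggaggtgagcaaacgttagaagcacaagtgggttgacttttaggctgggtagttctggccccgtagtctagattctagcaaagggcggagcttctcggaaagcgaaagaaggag
In the full 250 bases before the start, Tlr2 held 4 matches, of which the adjoining pair in capitals is in the stretch shown. Myd88 and both starts of Tlr1 held none, Tlr3 held 3, and Tlr9, Tlr12 and each start of Tlr6 held 1. Of all 32851 windows of this length, 56.2% held at least 1 match, and 21.2% held 2 or more. These counts describe letters in a window and say nothing of binding.

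Levels were judged against 1248 olfactory receptor genes (Olfr), a large family that T cells are not known to use. The median Olfr gene was at 0.577 to 1.229 TPM in the 12 libraries, and the 95th percentile at 1.508 to 2.797 TPM. A member was taken as above background in a group when it exceeded the 95th percentile in each of the 3 libraries. By this rule 5 members were above background in WT ex vivo (Tlr1, Tlr2, Tlr7, Tlr12 and Myd88), and Tlr6 joined them in 2 groups, cKO ex vivo and WT stimulated, giving 6 in each. Among cKO stimulated libraries 5 were above background (Tlr1, Tlr2, Tlr6, Tlr12 and Myd88), with Tlr7 below the 95th percentile in all 3 libraries. Tlr3 and Tlr4 were below it in all 12 libraries, and Tlr9 exceeded it in 5 of 12. Every member had at least 35 reads in every library.

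**Figure D1:**
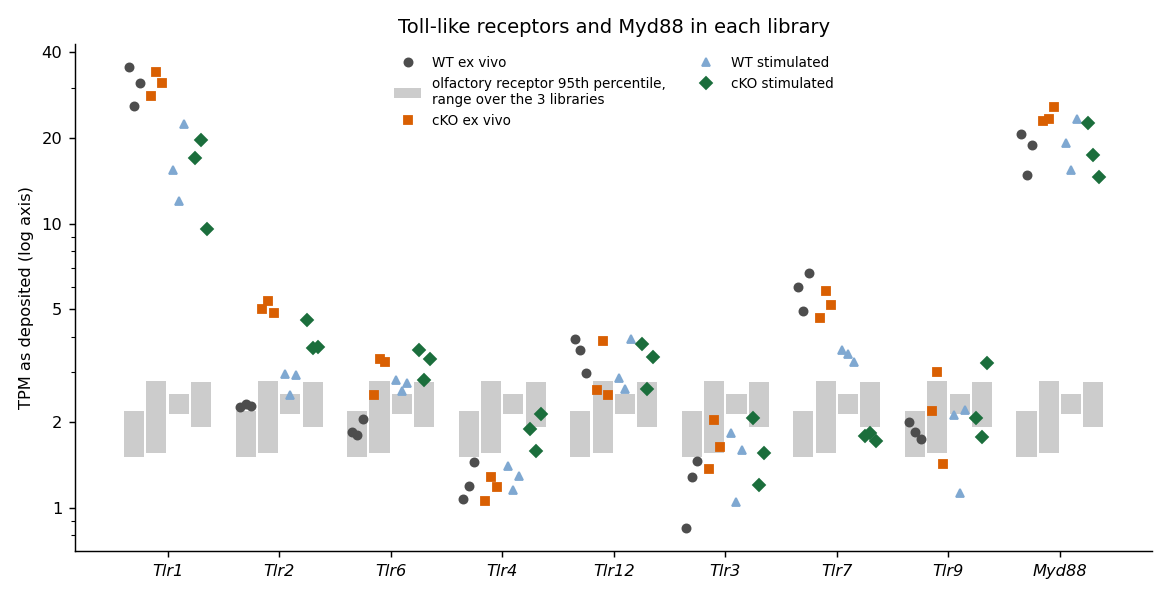
TPM as deposited, on a log axis, of each member in the 12 libraries, with 3 points per group; grey bars span the 95th percentile of 1248 olfactory receptor genes over the 3 libraries of the group. Tlr1 and Myd88 stand clear of the grey bars in all libraries, Tlr3 and Tlr4 lie in or under them, and Tlr7 drops to 1.71 to 1.83 TPM in cKO stimulated.

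In WT ex vivo the order of mean levels was Tlr1, Myd88, Tlr7, Tlr12, Tlr2, Tlr6, Tlr9, Tlr4 and Tlr3, from 30.9 ± 4.79 TPM to 1.20 ± 0.318 TPM (SD, n = 3). TPM are values per transcript length, so levels can be set side by side between genes. Tlr1 lay above Myd88 in each WT ex vivo library, Myd88 (18.1 ± 2.94 TPM) above Tlr7 (5.87 ± 0.906 TPM), and Tlr7 above Tlr12 (3.50 ± 0.486 TPM), all without overlap. Tlr2 (2.29 ± 0.0223 TPM) lay below Tlr12 and above Tlr6, also without overlap. Levels of Tlr1 and Tlr6 were not corrected for the sequence they share, so the place of Tlr6 beside Tlr2 and Tlr9 is uncertain. The neighbours Tlr6 (1.90 ± 0.131 TPM) and Tlr9 (1.87 ± 0.125 TPM) did not differ beyond their spread, nor did Tlr4 (1.24 ± 0.188 TPM) and Tlr3. After stimulation Myd88 lay above Tlr1 in each of the 3 WT libraries and in 2 of 3 cKO libraries, but the ranges of both genes overlapped: the WT means were 16.6 ± 5.28 and 19.3 ± 3.92 TPM, and the cKO means 15.4 ± 5.25 and 18.2 ± 4.07 TPM.

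Differences were tested with limma on log2 TPM after scaling between libraries, over the 13318 genes with a mean of at least 5 TPM in some group. Tlr1, Tlr2, Tlr7 and Myd88 entered this fit. Tlr2 entered through cKO ex vivo alone (5.07 TPM) and Tlr7 through the ex vivo groups (5.87 TPM and 5.20 TPM), so both entered through the groups where they are high. The other 5 members were fitted together with all 33873 genes of at least 1 TPM. A gene was called at an adjusted p under 0.05. Ex vivo, limma called 0 of the 4 between cKO and WT, against 5.29% of all tested genes (3.62% with higher and 1.67% with lower levels in cKO), and 1 member, Tlr2, had an unadjusted p under 0.05. After stimulation it called 0 of the 4, against 6.93% of tested genes (3.30% higher and 3.63% lower), and 3 members, Tlr2, Tlr7 and Myd88, had an unadjusted p under 0.05. Stimulation lowered Tlr1 and Tlr7 in both genotypes, where 32.0% of tested genes were called in WT (12.7% higher and 19.3% lower) and 43.8% in cKO (17.3% higher and 26.5% lower). Since Tlr7 entered through the ex vivo groups, where it is high, nothing is read from the number of these 4 members called. Among genes of at least 1 TPM, where all 9 members entered and every group mean was above the filter, 2 of 9 were called in WT (Tlr1 and Tlr7) and 3 of 9 in cKO (Tlr1, Tlr2 and Tlr7), all lower. In that fit the replicate block left 1 in WT (Tlr7) and 2 in cKO (Tlr1 and Tlr7), and TPM as deposited left 0 and 2. Leaving out a library gave 1 to 2 in WT, where Tlr1 was lost without WT ex vivo library 1 or 3 or WT stimulated library 1 or 2, and 2 to 4 in cKO. The interaction of genotype and stimulation called 0 of 4 members and 1.10% of tested genes (0.451% higher and 0.653% lower), and the unadjusted p of the 4 members was 0.144 or more. Over all genes of at least 1 TPM the calls were 0.168% and 0.154% between genotypes ex vivo and after stimulation, 5.11% and 17.5% with stimulation in WT and cKO, and 0.00% for the interaction (2468 genes at an unadjusted p under 0.05), and 0 of the 5 lower members were called in any of these. At an unadjusted p under 0.05 were Tlr6 and Tlr12 between genotypes ex vivo and Tlr12 with stimulation in WT. In bulk RNA, fewer cells of a type and less RNA per cell cannot be told apart.

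The counts over all genes of at least 5 TPM depended on the scaling and on single libraries. With TPM as deposited, calls ex vivo were 260 higher and 13 lower in cKO, against 482 and 222 after scaling, and 69 higher and 237 lower after stimulation, against 439 and 484. With stimulation it called 1175 higher and 768 lower in WT, where scaling gave 1688 and 2574, and 558 higher and 4116 lower in cKO, where scaling gave 2305 and 3530. Of the 704 calls ex vivo the number became 373 without WT ex vivo library 3 and 363, 452 and 331 without cKO ex vivo libraries 1, 2 and 3. After stimulation 923 became 574, 424 and 452 without WT stimulated libraries 1, 2 and 3, and 438 and 605 without cKO stimulated libraries 1 and 3. The 147 interaction calls became 56 without cKO stimulated library 1, and 57 to 92 without any 1 of 7 others (WT ex vivo libraries 2 and 3, cKO ex vivo libraries 1 and 3, and WT stimulated libraries 1, 2 and 3). With stimulation no library moved the count by 1.5 times.

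Tlr2 recognises bacterial lipopeptides as a heterodimer with Tlr1 or Tlr6, and its levels were higher in cKO in both conditions, without passing the test. In WT ex vivo Tlr2 was at 2.27, 2.31 and 2.29 TPM, and in cKO ex vivo at 4.99, 5.34 and 4.86 TPM. In WT stimulated it was at 2.97, 2.50 and 2.92 TPM, and in cKO stimulated at 4.57, 3.64 and 3.67 TPM. Every cKO library was thus above every WT library of the same condition, both as deposited and after scaling. As deposited, 21.4% of tested genes were higher in this way ex vivo and 3.68% after stimulation, and after scaling 11.6% and 12.8% were.

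These levels rest on 62 to 195 reads for Tlr2 in a library. The scaled mean was 1.86-fold higher in cKO ex vivo (4.56 ± 0.179 against 2.45 ± 0.401 scaled TPM, SD, n = 3) and 1.73-fold higher after stimulation (4.47 ± 0.481 against 2.58 ± 0.141 scaled TPM). On the log2(scaled TPM + 1) scale, which understates the change of low genes, the difference in Tlr2 was 0.69 ± 0.187 (SE) ex vivo, with a 95% interval of 0.28 to 1.10 and an adjusted p of 0.0593. After stimulation it was 0.61 ± 0.187 with an adjusted p of 0.0788. Since Tlr2 entered this fit through the group where it is high, the fit of genes of at least 1 TPM, where no group decides its entry, is set beside it: there the difference was 0.72 ± 0.134 ex vivo (95% interval 0.43 to 1.02, adjusted p 0.0777) and 0.36 ± 0.134 after stimulation (0.07 to 0.66, adjusted p 0.336). None of these passed the threshold. Over the alternatives the adjusted p for Tlr2 ranged from 0.00441 to 0.194 ex vivo, where 3 of 22 called it, and from 0.00766 to 0.336 after stimulation, where 1 of 22 did. With stimulation Tlr2 gave 0.06 ± 0.187 in WT (adjusted p 0.839) and -0.02 ± 0.187 in cKO (adjusted p 0.926), the latter called at -0.48 with the 1 TPM filter (adjusted p 0.0294). That call was lost when the 1 TPM filter was joined with TPM as deposited, median of ratios, the replicate block, only the groups compared, recovered reads or the Olfr median subtracted, or without cKO ex vivo library 1 or 3, WT stimulated library 2 or cKO stimulated library 1 or 3.

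Summed B cell markers were also higher in cKO than in WT ex vivo, and their ranges overlapped after stimulation. The 7 B cell markers summed to 14.3 to 18.2 TPM in WT ex vivo against 22.3 to 31.6 TPM in cKO ex vivo, and to 16.0 to 21.7 TPM against 20.1 to 27.1 TPM after stimulation. Of these markers 3 were above background in either WT group and 4 in either cKO group, and none was listed at 0. The 9 markers of monocytes, macrophages and neutrophils, cells rich in Tlr2, summed to 17.2 to 20.3 TPM in WT ex vivo against 18.3 to 29.96 TPM in cKO ex vivo, and to 27.7 to 39.95 TPM against 25.6 to 36.7 TPM after stimulation. Of these 2, 3, 4 and 5 of 9 were above background, in the order of groups just used. Levels differed between the markers: Lyz2 was at 0.881 to 2.46 TPM in the 12 libraries, and Cd68, the highest, at 4.94 to 16.97 TPM. Cd68 was called as higher with stimulation in both genotypes, though in cKO not with TPM as deposited (adjusted p 0.237). The part of both marker lists in the difference in Tlr2 was not tested.

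Tlr1, the partner of Tlr2 for triacylated lipopeptides, was the most abundant receptor. It was at 35.6, 26.0 and 31.2 TPM in WT ex vivo and at 28.2, 34.0 and 31.3 TPM in cKO ex vivo. It was at 15.5, 11.98 and 22.4 TPM in WT stimulated and at 17.0, 19.8 and 9.60 TPM in cKO stimulated. As deposited the genotypes overlapped in both conditions. After scaling every cKO ex vivo library of Tlr1 (26.8 to 28.9) lay below every WT ex vivo library (32.1 to 33.2), as did 9.95% of tested genes, and the genotypes overlapped after stimulation. In each genotype all stimulated libraries lay below all ex vivo libraries, as did 9.90% of tested genes in WT and 43.9% in cKO as deposited, while 23.2% and 7.55% lay wholly above.

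The scaled mean of Tlr1 fell from 32.6 ± 0.581 to 15.1 ± 3.02 in WT, a log2 fold change of -1.08 ± 0.167 (SE, adjusted p 0.000649). In cKO it fell from 28.0 ± 1.09 to 17.1 ± 4.61, a log2 fold change of -0.71 ± 0.167 (adjusted p 0.00664). On this scale stimulated libraries lay wholly below ex vivo ones in 26.3% of tested genes in WT and in 30.7% in cKO, and wholly above in 21.1% and 22.8%. The fall was called in all 22 alternatives in WT (adjusted p 3.61e-06 to 0.0363) and in 21 of 22 in cKO (0.000592 to 0.05004, with quantile normalization just past the threshold). The difference between these falls, 0.37 ± 0.236 (adjusted p 0.495), was not called. Between genotypes Tlr1 differed by -0.21 ± 0.167 ex vivo (adjusted p 0.586), which turned to 0.02 with TPM as deposited, and by 0.16 ± 0.167 after stimulation (adjusted p 0.588), which turned to -0.11 with that setting and to -0.12 with the 1 TPM filter.

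**Figure D2:**
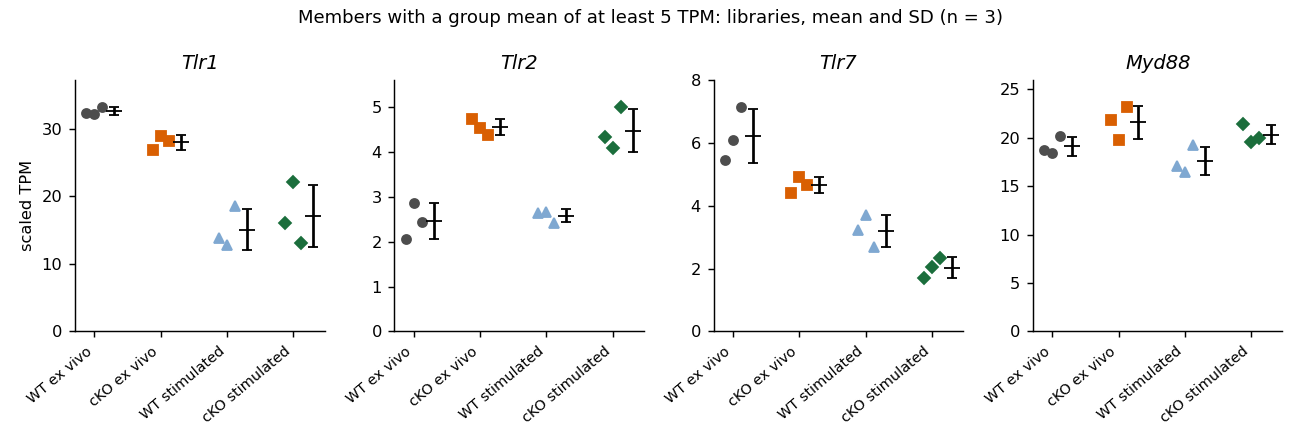
Scaled TPM of Tlr1, Tlr2, Tlr7 and Myd88 in each library by group, each panel starting at 0; black marks give the mean and SD of 3 libraries. Tlr2 is higher in cKO at both conditions (1.86-fold and 1.73-fold), and Tlr1 and Tlr7 are lower after stimulation in both genotypes.

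Tlr6, the partner of Tlr2 for diacylated lipopeptides, stayed near background. Its means were 1.90 ± 0.131 TPM in WT and 3.03 ± 0.474 TPM in cKO ex vivo, and 2.72 ± 0.125 TPM and 3.25 ± 0.395 TPM after stimulation. In the fit at 1 TPM, Tlr6 differed between genotypes by 0.32 ± 0.134 ex vivo (adjusted p 0.66) and by 0.17 ± 0.134 after stimulation (adjusted p 0.585), and was not called in any of its 21 alternatives in either comparison.

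Ratios within a library do not depend on scaling. The ratios of Tlr1 to Tlr2 and of Tlr7 to Tlr2 were chosen after their values were seen. The Tlr1 to Tlr2 ratio was 15.7, 11.2 and 13.6 in WT ex vivo and 5.65, 6.36 and 6.44 in cKO ex vivo. After stimulation it was 5.22, 4.80 and 7.65 in WT and 3.71, 5.43 and 2.62 in cKO. The genotypes separated ex vivo and overlapped after stimulation in this ratio.

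Tlr4, the receptor for lipopolysaccharide, was at 1.05 to 2.14 TPM in the 12 libraries, below the Olfr 95th percentile in each. Of the 1248 Olfr genes 196 had a higher mean than Tlr4. Its fitted differences, the interaction aside, lay between -0.23 ± 0.162 (stimulation in WT) and 0.31 ± 0.162 (genotype after stimulation, adjusted p 0.422), and its interaction was 0.48 ± 0.228 (adjusted p 0.683), with 0 calls. Tlr12, which together with Tlr11 recognises profilin of protozoa, was above background in every library at 2.48 to 3.94 TPM. Tlr12 differed by -0.38 ± 0.136 between genotypes ex vivo (adjusted p 0.521) and by 0.03 ± 0.136 after stimulation (adjusted p 0.934). With stimulation Tlr12 differed by -0.48 ± 0.136 in WT (adjusted p 0.0689), which 1 of 21 alternatives called, and by -0.07 ± 0.136 in cKO (adjusted p 0.792). The interaction for Tlr12 was 0.41 ± 0.192 (adjusted p 0.683).

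Tlr7, the endosomal receptor for single-stranded RNA, had its highest levels ex vivo. It was at 5.99, 4.91 and 6.71 TPM in WT ex vivo and at 4.65, 5.78 and 5.18 TPM in cKO ex vivo. It was at 3.60, 3.46 and 3.25 TPM in WT stimulated and at 1.79, 1.83 and 1.71 TPM in cKO stimulated. The genotypes overlapped ex vivo as deposited, while on scaled values every cKO library lay below every WT library, as did 9.95% of tested genes (1.47% as deposited). After stimulation each cKO library of Tlr7 lay below each WT library on both scales, as did 27.1% of tested genes as deposited and 18.0% after scaling.

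Stimulation lowered Tlr7 by a log2 fold change of -0.78 ± 0.179 in WT (SE, adjusted p 0.00697) and of -0.91 ± 0.179 in cKO (adjusted p 0.00242). The scaled means went from 6.22 ± 0.860 to 3.20 ± 0.510 in WT and from 4.67 ± 0.252 to 2.03 ± 0.320 in cKO. In the fit of genes of at least 1 TPM, Tlr7 was at -0.99 in WT (adjusted p 0.00537) and -1.31 in cKO (adjusted p 0.000535). There Tlr7 was called in WT without WT ex vivo library 3 as well. In WT the Tlr7 fall was called in 21 of 22 alternatives and was not with TPM as deposited (adjusted p 0.086); without WT ex vivo library 3, the library high in Xist and highest in Tlr7, it was -0.68 ± 0.219 (adjusted p 0.0444). In cKO it was called in all 22 (adjusted p 1.99e-05 to 0.03). Between genotypes Tlr7 differed by -0.34 ± 0.179 ex vivo (adjusted p 0.363), or -0.26 ± 0.219 without WT ex vivo library 3 (adjusted p 0.668), and by -0.47 ± 0.179 after stimulation (adjusted p 0.146). Of the alternatives 3 of 22 called the difference after stimulation, with adjusted p from 0.0214 to 0.428. The interaction for Tlr7 was -0.13 ± 0.253 (adjusted p 0.851), or -0.19 without that library (adjusted p 0.818). The ratio of Tlr7 to Tlr2 was 2.12 to 2.93 in WT ex vivo against 0.931 to 1.08 in cKO ex vivo, and 1.11 to 1.39 in WT stimulated against 0.393 to 0.503 in cKO stimulated, with no overlap between genotypes in either condition. Without WT ex vivo library 3 the upper end in WT ex vivo was 2.64. An exact permutation test of 3 against 3 libraries cannot give a p below 0.1.

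Tlr3, which binds double-stranded RNA, was at 0.850 to 2.07 TPM and below the Olfr 95th percentile in all 12 libraries. Tlr9, which binds unmethylated CpG DNA, was at 1.13 to 3.22 TPM. For Tlr9 the spread within groups was wide, from 1.42 to 3.00 TPM within cKO ex vivo and from 1.77 to 3.22 TPM within cKO stimulated. The interaction aside, fitted differences of Tlr3 lay between -0.19 ± 0.177 and 0.15 ± 0.177, and those of Tlr9 between -0.35 ± 0.200 and 0.24 ± 0.200. None was called for Tlr3 or Tlr9 in any comparison or alternative.

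Myd88, the shared adaptor, was abundant in all groups. It was at 20.6, 14.9 and 18.9 TPM in WT ex vivo and at 23.0, 23.3 and 25.7 TPM in cKO ex vivo. It was at 19.1, 15.4 and 23.3 TPM in WT stimulated and at 22.6, 17.4 and 14.6 TPM in cKO stimulated. The scaled means were close together, at 19.1 ± 0.934 in WT and 21.6 ± 1.72 in cKO ex vivo, and at 17.6 ± 1.43 and 20.3 ± 1.00 after stimulation, where every cKO library lay above every WT library, as did 12.8% of tested genes. As deposited Myd88 overlapped between genotypes after stimulation and was wholly higher in cKO ex vivo, as were 21.4% of tested genes.

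On the log2 scale Myd88 differed between genotypes by 0.17 ± 0.0853 ex vivo (95% interval -0.02 to 0.36, adjusted p 0.348) and by 0.20 ± 0.0853 after stimulation (interval 0.01 to 0.39, adjusted p 0.19). The latter turned to -0.08 with TPM as deposited and to -0.09 with the 1 TPM filter, and passed the threshold with quantile normalization (adjusted p 0.0337). With stimulation Myd88 gave -0.11 ± 0.0853 in WT (adjusted p 0.344) and -0.08 ± 0.0853 in cKO (adjusted p 0.45), neither called when 1 choice was changed at a time. With the 1 TPM filter Myd88 in cKO was at -0.62 (adjusted p 0.0566), and that fit called it when cKO ex vivo library 2 or cKO stimulated library 2 was also left out. With TPM as deposited the median log2 fold change of all tested genes was 0.21 and -0.30 between genotypes ex vivo and after stimulation, against -0.01 and -0.04 after scaling, and 0.18 and -0.31 with stimulation in WT and cKO, against 0.00 and -0.01.

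**Figure D3:**
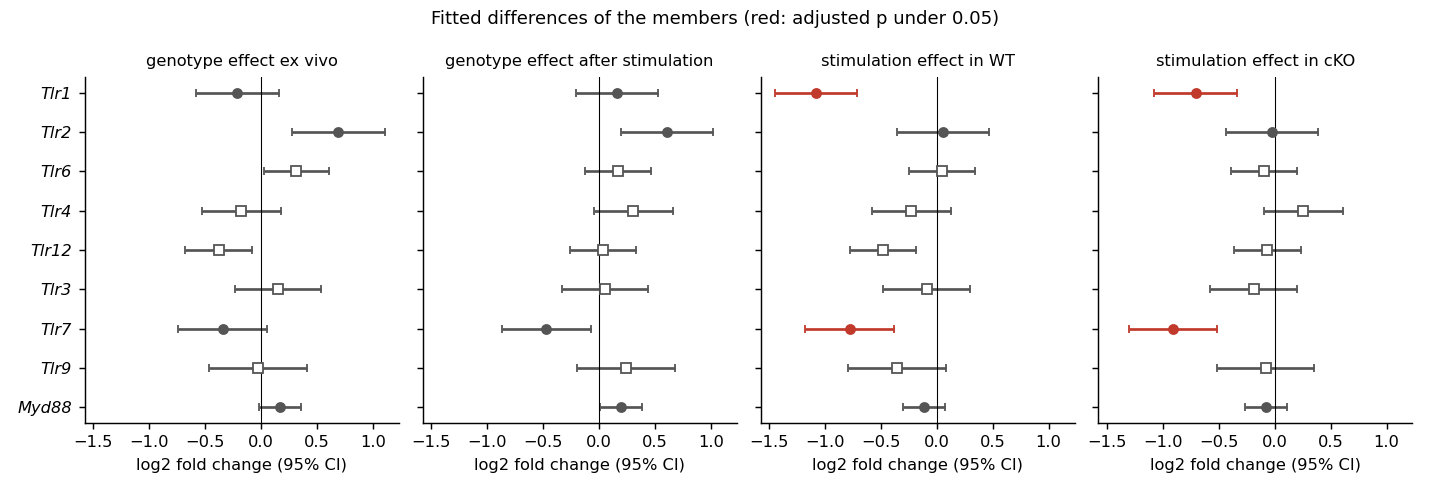
Log2 fold change of each member with its 95% interval in 4 comparisons; circles are members fitted among genes of at least 5 TPM and open squares members fitted among genes of at least 1 TPM. Red marks Tlr1 and Tlr7 after stimulation, the only calls in the values plotted; the 2 comparisons of genotype hold none.

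Over the 12 libraries, the pattern of Tlr1 on the log2 scale was most like those of Ssbp4 (Pearson r 0.962) and Gpr183 (0.959), a chemotactic receptor for oxysterols. Tlr2 was most like Rassf4 (0.973) and Sept8 (0.969). Tlr7 was most like Id3 (0.984), an inhibitor of E protein transcription factors, and snoU6-77 (0.981). Myd88 was most like Cd79b (0.909), a B cell receptor chain, and Dstn (0.904). Among the members, the correlation was 0.751 for Tlr1 with Tlr7, 0.636 for Tlr2 with Myd88 and -0.389 for Tlr2 with Tlr7. These are descriptions over 12 libraries that fall into 4 groups and share depth and composition.

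In all, 53 further genes of the pathway were listed by role, and 37 of them reached 5 TPM. Of the tested genes, Ly96, Il1rl1 and Il18rap were below 5 TPM in WT ex vivo (means 3.77, 4.04 and 4.48 TPM). They entered through groups where they are higher, and the counts below include their calls. Between genotypes ex vivo 6 of 37 were higher in cKO and 0 lower, 16.2% against 5.29% of all tested genes, with a median log2 fold change of 0.07 against -0.01. After stimulation 3 were higher and 3 lower (16.2% against 6.93%), with a median of -0.06 against -0.04. Stimulation raised 10 and lowered 11 of the 37 in WT (56.8% against 32.0%) and raised 8 and lowered 17 in cKO (67.6% against 43.8%). The interaction called 2 of 37 (5.41% against 1.10%). Every genotype and interaction call in these lists had the same sign in each alternative fit at 5 TPM.

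Of the other Toll-like receptors Tlr5, Tlr8, Tlr11 and Tlr13, none was above background in any group. Of 9 co-receptors and chaperones, 4 were tested. Unc93b1, the chaperone that carries Tlr7 and Tlr9 to endosomes, was at 9.62, 7.21 and 8.92 TPM in WT ex vivo and at 15.8, 18.7 and 20.2 TPM in cKO ex vivo. It rose by 0.78 ± 0.149 in cKO ex vivo (adjusted p 0.0126, and 0.0607 without cKO ex vivo library 3), and differed by 0.53 after stimulation (adjusted p 0.0594). With stimulation Unc93b1 fell by 0.70 in cKO (adjusted p 0.00379) and fell by 0.44 in WT (adjusted p 0.043), the latter called in 3 of 12 fits that leave out a library and in 5 of 9 other fits. Ly96, the partner of Tlr4, rose by 0.75 in WT with stimulation (adjusted p 0.0318). It entered the fit through the stimulated groups alone (7.89 TPM in WT and 5.08 TPM in cKO), where it is high. The call was lost without WT ex vivo library 1 or 2 or WT stimulated library 1 or 2. It was kept in 5 of 9 other fits. Hsp90b1, a chaperone of most of these receptors, fell by 0.35 in cKO with stimulation (adjusted p 0.016), but not without cKO ex vivo library 3 or cKO stimulated library 3, and its sign changed with quantile normalization (adjusted p 0.184).

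Of the adaptors beside Myd88, 1 of 4 was tested. Ticam1, the adaptor of Tlr3, rose by 0.38 with stimulation in WT (adjusted p 0.0494), a call kept in 3 of 12 fits that leave out a library and in 4 of 9 others. All 15 kinases and ubiquitin ligases were tested, and 14 did not differ between genotypes past the threshold in either condition. Ikbke differed by -0.38 ± 0.081 in cKO after stimulation (adjusted p 0.0198), a call lost without any 1 of the 3 WT stimulated libraries or of cKO stimulated libraries 1 and 3, with TPM as deposited (0.0828), and with only the groups compared (0.0938). Stimulation raised Tab2 by 0.35 and Irak4 by 0.33 in WT and gave -0.54 for Peli1 and -0.38 for Ikbkb. In cKO it raised Irak4 by 0.43 and Tab1 by 0.29 and gave -0.62 for Tab3 and -0.47 for Ikbke; the call of Tab1 was kept in 4 of 12 fits that leave out a library and its sign changed in 1 alternative. The Tab2 call in WT was kept in 7 of 12 and that of Irak4 in WT in 10 of 12 such fits. With TPM as deposited the calls of Irak4 (adjusted p 0.0823), Tab2 (0.122), Peli1 (0.313) and Ikbkb (0.47) in WT and of Irak4 (0.581) and Tab1 (0.991) in cKO were lost, and with quantile normalization those of Irak4 in WT (0.0602) and of Ikbke (0.0914) and Tab1 (0.348) in cKO.

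Of 8 negative regulators 7 were tested. Socs1, a suppressor of cytokine signalling, was at 68.7, 35.9 and 61.8 TPM in WT stimulated and at 293, 213 and 129 TPM in cKO stimulated. It was higher in cKO by 2.18 ± 0.219 after stimulation (adjusted p 0.000285) and by 0.14 ± 0.219 ex vivo (adjusted p 0.828), and the interaction of 2.04 ± 0.310 was called (adjusted p 0.0137), though not with TPM as deposited (0.0984). Nfkbia, the inhibitor of NF-κB that NF-κB itself induces, was at 596, 425 and 598 TPM in WT ex vivo and at 1181, 1067 and 1250 TPM in cKO ex vivo. Nfkbia rose by 0.89 ± 0.143 in cKO ex vivo (adjusted p 0.00559) and differed by -0.09 after stimulation; its interaction of -0.98 (adjusted p 0.0495) was kept in 2 of 12 fits that leave out a library and in 2 of 8 others. Sigirr, an inhibitory member of the interleukin-1 receptor family, was lower, at -0.51 ± 0.070, in cKO after stimulation (adjusted p 0.00184). With stimulation Tnfaip3 gave -1.74 in WT and -1.94 in cKO and Nfkbia -1.07 and -2.04, all called, while Otud7b rose by 0.61 and 0.45 and Socs1 rose by 1.42 in cKO. The Nfkbia call in WT was lost with quantile normalization (adjusted p 0.111) and the Otud7b call in cKO with TPM as deposited (0.538).

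Among 6 transcription factors, Rel, an NF-κB subunit, was higher by 0.71 ± 0.152 in cKO ex vivo (adjusted p 0.0224), a call lost without WT ex vivo library 2 or 3 or cKO ex vivo library 1 or 3, with TPM as deposited (0.0683), or with only the groups compared (0.0557). Irf5 was higher by 0.33 ± 0.082 ex vivo (adjusted p 0.0417), and this call was kept in 3 of 12 fits that leave out a library and in 3 of 9 others. Irf7, an interferon-induced factor, was higher by 0.67 ± 0.173 in cKO after stimulation (adjusted p 0.0447), kept in 6 of 12 such fits and 5 of 9 others, and differed by -0.50 ex vivo (adjusted p 0.149). With stimulation Nfkb1 rose by 0.91 and Irf5 by 0.58 in WT and Irf7 fell by 1.26. In cKO Irf3 rose by 0.55 and Nfkb1 by 0.43, the latter kept in 8 of 12 such fits, and both were lost with TPM as deposited (adjusted p 0.455 for Irf3 and 0.754 for Nfkb1). Rel fell by 0.63 and Rela by 0.49 in cKO, but the sign of each changed with quantile normalization (adjusted p 0.621 and 0.572), and the Rela call was also lost without cKO ex vivo library 1 or cKO stimulated library 3.

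The interleukin-1 receptor family shares Myd88 with the Toll-like receptors, and 4 of 7 members were tested. Il1rl1 and Il18rap were below 5 TPM on average in WT ex vivo and entered through the other groups, where they are higher. Il1rl1, the receptor for interleukin-33, was at 4.18, 4.04 and 3.90 TPM in WT ex vivo and at 10.3, 9.89 and 11.2 TPM in cKO ex vivo, a difference of 0.97 ± 0.151 (adjusted p 0.00477). Stimulated WT libraries held 20.2, 13.9 and 22.9 TPM of Il1rl1 and stimulated cKO libraries 40.9, 31.2 and 19.0 TPM, which overlapped as deposited, a difference of 0.89 ± 0.151 (adjusted p 0.00562) that was not called with TPM as deposited (0.143). Il18r1 was higher by 0.65 ± 0.105 in cKO ex vivo (adjusted p 0.00559) and differed by 0.27 after stimulation (adjusted p 0.152). Il1r2, the decoy receptor for interleukin-1, was lower, at -0.88 ± 0.140, in cKO after stimulation (adjusted p 0.00399). Stimulation raised Il1rl1 by 1.78 in WT and 1.70 in cKO and Il18rap by 0.46 in WT. For Il1r2 it gave -0.52 in cKO, while in WT Il1r2 was called as higher. That call in WT was kept in 4 of 12 fits that leave out a library and in 6 of 9 others. The interaction for Il1r2 was not called. The Il18rap call was kept in 8 of 12 and the Il1r2 call in cKO in 10 of 12 fits that leave out a library. The former was lost with only the groups compared (adjusted p 0.0744) and the latter with quantile normalization (0.157).

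**Figure D4:**
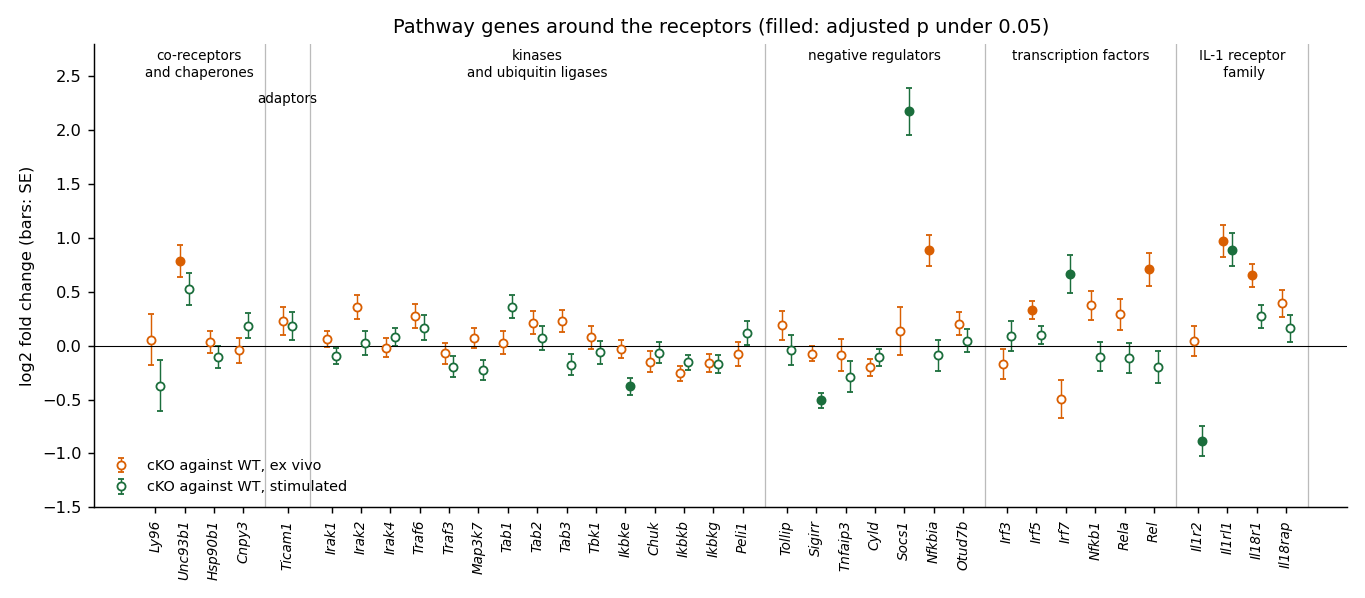
Log2 fold change of cKO against WT, with SE bars, for the 37 tested pathway genes grouped by role, ex vivo and after stimulation; filled points passed the adjusted p threshold. Socs1 after stimulation (2.18) and Il1rl1 (0.97 and 0.89) are the highest points, and all 6 filled points ex vivo are above 0.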

How the data were processed

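The authors removed ribosomal RNA, made strand-specific libraries, sequenced paired reads of 51 bases, aligned them with STAR 2.6.0c to mm9, and counted exon reads per Ensembl 67 gene with HTSeq 0.6.1. The deposited signal of each gene and library is TPM, and the authors also deposited log2 values, which with TPM gave back whole reads for 99.9977% of values (within 0.01 read); their own table of comparisons was not used here. Genes with a group mean of at least 5 TPM were scaled between libraries by trimmed means (30% of ratios and 5% of levels trimmed) and fitted as log2(scaled TPM + 1) over all 12 libraries with limma 3.58.1 in R 4.3.3 (moderated test with a mean-variance trend, Benjamini-Hochberg adjustment within a comparison, two-sided). Alternatives were a 1 TPM filter, pseudocounts of 0.5 and 0.1, TPM as deposited, median of ratios, quantile normalization, a replicate block, only the groups compared, recovered reads, and leaving out each library. Subtracting the Olfr median and the ratios to Tlr2 were added after seeing the data. The fit was tested on simulated data. Named genes were the 9 members, Ikzf1, pathway genes called between genotypes or in the interaction, for stimulation the 2 widest changes each way per list, and the 2 genes most like each member. The members and lists were chosen with earlier results of these data known. Per the labels, cells came from individual mice, 3 replicates a group.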

Additional observations from a re-analysis of the deposited data

Results flagged for a closer look

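Tlr2 went in opposite directions with stimulation in the 2 genotypes as deposited: every WT stimulated library (2.50 to 2.97 TPM) was above every WT ex vivo library (2.27 to 2.31 TPM), and every cKO stimulated library (3.64 to 4.57 TPM) was below every cKO ex vivo library (4.86 to 5.34 TPM). Over all tested genes 23.2% lay wholly above in WT and 43.9% wholly below in cKO as deposited. The share of genes that did both was not counted. As deposited, the median log2 fold change of all tested genes was 0.18 in WT and -0.31 in cKO, the same directions as Tlr2. The log2 ratio of these ratios of means was -0.64. After scaling the groups overlapped in both genotypes, and the test of the difference gave -0.08 ± 0.264 (SE, adjusted p 0.915).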

How the results depend on the processing

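The count of members called between genotypes ex vivo was 0 and became 1 (Tlr2) with a pseudocount of 0.1, with recovered reads and with the Olfr median subtracted. After stimulation it was 0 and became 2 with quantile normalization (Tlr7 and Myd88), 2 with recovered reads (Tlr2 and Tlr7) and 1 with the Olfr median subtracted (Tlr7). With stimulation 2 were called, and 1 with TPM as deposited in WT (Tlr1), 1 with quantile normalization in cKO (Tlr7) and 3 with the 1 TPM filter in cKO (Tlr1, Tlr2 and Tlr7). The numbers of members above background became 3 with the 99th percentile in WT stimulated and in cKO stimulated, and 9 with a minimum of 10 reads in all 4 groups. Among genes of at least 5 TPM, leaving out each library kept the counts of calls at 0, 0, 2, 2 and 0, and it gave 5 to 7 members above background in WT ex vivo and 6 to 7 in cKO ex vivo. The cause of these shifts was not tested.

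Sign changes of small differences were as follows. With 1 choice changed at a time none was called on either side, with 2 exceptions. Tlr2 with stimulation in cKO was called as lower (-0.48) at 1 TPM, and Myd88 after stimulation was called as higher in cKO (0.30) with quantile normalization. The 1 TPM filter joined with leaving out cKO ex vivo library 2 or cKO stimulated library 2 also called Myd88 with stimulation in cKO. With TPM as deposited, Tlr1 gave 0.019 (genotype ex vivo), -0.11 (genotype after stimulation) and -0.13 (interaction), Tlr3 0.18 and Tlr4 0.029 (stimulation in WT), Tlr6 0.079, Tlr9 0.070 and Tlr12 0.11 (stimulation in cKO), Tlr9 0.13 (genotype ex vivo), and Myd88 -0.079 (genotype after stimulation), 0.077 (stimulation in WT) and -0.47 (interaction). With quantile normalization, Tlr2 gave -0.31, Tlr6 -0.043 and Myd88 0.036 (stimulation in WT), Myd88 0.19 (stimulation in cKO), and Tlr3 -0.0097 and Tlr12 -0.031 (genotype after stimulation). With the 1 TPM filter, Tlr1 gave -0.12 and Myd88 -0.091 (genotype after stimulation), Tlr2 -0.12 (stimulation in WT) and Myd88 -0.27 (interaction). For stimulation, Tlr2 gave -0.0068 in WT with the Olfr median subtracted and 0.028 in cKO with median of ratios, and Tlr12 in cKO gave 0.0038 with median of ratios and 0.022 with recovered reads.

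Leaving out 1 library at a time also turned small differences. For genotype ex vivo, Tlr3 ranged from -0.0041 to 0.26 and Tlr9 from -0.14 to 0.13. For genotype after stimulation, Tlr1 ranged from -0.032 to 0.36, Tlr3 from -0.024 to 0.12 and Tlr12 from -0.046 to 0.13. For stimulation in WT, Tlr2 ranged from -0.027 to 0.14, Tlr3 from -0.25 to 0.028 and Tlr6 from -0.0014 to 0.11. For stimulation in cKO, Tlr2 ranged from -0.055 to 0.028 and Tlr9 from -0.24 to 0.038. For the interaction, Tlr2 ranged from -0.17 to 0.0021, Tlr3 from -0.21 to 0.057 and Myd88 from -0.028 to 0.092.

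Replicate numbers were not used to pair the samples in the main fit. The deviations of same-numbered libraries correlated at -0.208 to 0.257 (2 of 18 above 0.1), and those of other libraries at -0.188 to 0.221 (5 of 36). With 3 libraries per group these values cannot show whether same-numbered libraries share a mouse or a batch, which the sources used here do not state. With the replicate as a block the calls over all genes were 516, 630, 3945, 5458 and 65 against 704, 923, 4262, 5835 and 147, and the members' counts at 5 TPM stayed at 0, 0, 2, 2 and 0. Of the pathway calls named above, the following were lost with the block: Irf5 ex vivo (adjusted p 0.0682), Irf7 after stimulation (0.0871), the interaction of Nfkbia (0.115), Unc93b1 (0.0723), Ly96 (0.0502), Ticam1 (0.0504), Tab2 (0.0557) and Il1r2 (0.0768) with stimulation in WT, and Tab1 (0.0576) with stimulation in cKO.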

Other observations

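The adaptors Tirap and Ticam2, which bridge Tlr2 and Tlr4 to Myd88 and to Ticam1, did not reach 5 TPM. Tirap was at 1.52 to 2.03 TPM in the WT ex vivo libraries and at 2.27 to 2.31 TPM in cKO ex vivo, and reached 3.55 TPM in WT and 4.07 TPM in cKO after stimulation. As deposited 21.4% of tested genes were wholly higher in cKO ex vivo, and the fit at 1 TPM gave 0.10 ± 0.141 for Tirap in that comparison (adjusted p 1), with stimulation 0.27 in WT (adjusted p 0.348) and 0.32 in cKO (adjusted p 0.153). Cd79b, a B cell receptor chain whose pattern was closest to that of Myd88, was at 2.72, 2.87 and 6.65 TPM in WT stimulated and at 9.11, 5.81 and 6.06 TPM in cKO stimulated, and was higher in cKO by 0.96 ± 0.225 (adjusted p 0.0283), a call lost without WT stimulated library 1 or 2 or cKO stimulated library 1 or 3, with TPM as deposited (0.136), or with only the groups compared (0.0966).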
